A study of Mus musculus with 6 samples.

Results

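The genes described here are the Ly49 receptor genes Klra3, Klra4, Klra6, Klra7, Klra8 and Klra9 together with Klrb1c and Ncr1, 8 genes chosen by name as receptors that are best known from natural killer (NK) cells. Of these, 6 were among the 28773 genes of the expression files used here, and values for Klra6 and Klra8 were not used here. RNA had been sequenced from CD8+ T cells of mouse spleens on day 35, in 3 MWA+PBS samples (replicates 1 to 3) and 3 MWA+2DG samples (replicates 4 to 6). All mice were female, carried an implanted tumor and underwent microwave ablation (MWA) of it. They then received repeated intraperitoneal injections of 2-deoxy-D-glucose (2DG), a sugar analogue that blocks glycolysis, or of PBS. The study separated CD8+ T cells from splenocytes with a commercial isolation kit. The study's wild-type mice were 6 weeks old at the start, apart from an older BALB/c control group of another experiment. The sources used here do not give which strain or tumor line lay behind these 6 samples, nor whether a sample was 1 mouse or a pool. The p-values therefore measure the spread between these samples only.

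Ly49 receptors are C-type lectin-like proteins of rodent NK cells that bind MHC class I molecules, and they are encoded side by side in the NK gene complex. Most of them carry an immunoreceptor tyrosine-based inhibitory motif (ITIM) in the cytoplasmic tail, which recruits phosphatases once the tyrosine is phosphorylated. A few lack it and pair with the adaptor DAP12, the product of Tyrobp, to activate the cell. Klra3 (Ly49C), Klra6 (Ly49F), Klra7 (Ly49G) and Klra9 (Ly49I) encode inhibitory receptors, whereas Klra4 (Ly49D) and Klra8 (Ly49H) encode activating ones. Klrb1c encodes the activating receptor NKR-P1C, which pairs with the Fc receptor gamma chain (Fcer1g), and Ncr1 encodes NKp46, a natural cytotoxicity receptor that signals through the same chain and through CD3 zeta (Cd247). A subset of memory-phenotype CD8+ T cells also carries inhibitory Ly49 receptors. The number of Ly49 genes differs between mouse strains.

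The first 60 coding bases of the 6 Ly49 members are shown because they hold the ITIM of the inhibitory receptors, which the activating ones lack. They are reference sequence of the C57BL/6J mouse (GENCODE M21 transcripts, build GRCm38, minus strand of chromosome 6), written 5′ to 3′, with the codons of an ITIM in capitals. The motif searched was a tyrosine with isoleucine, valine or leucine 2 residues before it and isoleucine, valine or leucine 3 residues after it, on the coding strand.
Klra3, chr6:130335740-130335799: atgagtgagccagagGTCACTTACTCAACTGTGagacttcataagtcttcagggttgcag
Klra6, chr6:130025160-130025219: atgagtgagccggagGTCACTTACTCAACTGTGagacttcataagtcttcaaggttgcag
Klra7, chr6:130231558-130231617: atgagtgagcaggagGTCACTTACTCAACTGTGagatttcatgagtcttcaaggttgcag
Klra9, chr6:130191242-130191301: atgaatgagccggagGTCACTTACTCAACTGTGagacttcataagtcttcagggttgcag
Klra4, chr6:130065243-130065302: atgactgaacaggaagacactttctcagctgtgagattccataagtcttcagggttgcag
Klra8, chr6:130128101-130128160: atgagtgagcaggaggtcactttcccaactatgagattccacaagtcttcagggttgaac

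The match began at residue 6 in Klra3, Klra6, Klra7 and Klra9, and Klra4 and Klra8 held no match in these bases. Over all 22071 mouse coding sequences examined in the same way, 1.51% held a match in their first 60 bases. The Ly49 genes are close copies of each other. Over the aligned coding sequence Klra3 was 95.9% identical to Klra9, 96.2% to Klra10 and 91.0% to Klra6, but 81.4% to Klra7 and 78.3% to Klra4. No stretch of 150 bases, the length of 1 read, was shared between the transcripts of Klra3, Klra4, Klra7, Klra9 or Ncr1 and another gene. In Klrb1c, 18% of such stretches also occurred in the neighbouring gene Gm44511. Reads from another strain, or reads with mismatches, could still be split between these copies, so the Ly49 genes are given both singly and as a sum.

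The isolates held RNA of other cell types besides CD8+ T cells, at levels that differed between the groups. Cd8a was 232 ± 6.96 FPKM (a fragment count scaled by the length of the transcript and the size of the library, mean ± SD, n = 3) in MWA+PBS and 366 ± 9.47 in MWA+2DG. Of 15 T lineage genes 14 rose, Cd2 most (log2 fold change 0.69). The summed FPKM of 9 neutrophil markers ranged in MWA+PBS from 55.6 to 81.2, and in MWA+2DG from 1525.8 to 1700.0. That of 9 macrophage and monocyte markers ranged in MWA+PBS from 532 to 585, and in MWA+2DG from 81.4 to 88.9. All 9 neutrophil genes rose (median log2 fold change 4.36, largest for S100a9 at 4.65) and all 9 macrophage genes fell (median -2.60, C1qb -2.78). All 7 B cell markers rose (sum 10.5 to 11.6 in MWA+PBS, 63.7 to 69 in MWA+2DG, Ighd 2.80), 3 of 3 tested dendritic cell markers fell (17.9 to 19.6 and 11 to 11.6, Flt3 -1.23) and 2 of 4 tested CD4 T cell markers fell (15.5 to 17.3 and 15.1 to 15.7, Zbtb7b -0.51). The other 4 dendritic cell markers, Xcr1, Clec9a, Siglech and Zbtb46, had a mean under 1 FPKM. They were not called in a fit of all genes above 0 (limma adjusted p between 0.071 and 0.553). Ccr9 alone gave 9.37 and 7.51 FPKM of the mean dendritic cell sums of 18.8 and 11.4 FPKM. In such bulk samples fewer cells of a type and less RNA per cell cannot be told apart. These shifts moved with every member result that follows, and their part in those results was not tested.

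Ncr1 (ENSMUSG00000062524), the most abundant member, fell in MWA+2DG. It was 7.17, 6.34 and 6.12 FPKM in MWA+PBS replicates 1 to 3 and 4.76, 5.02 and 4.97 FPKM in MWA+2DG replicates 4 to 6. Every MWA+2DG sample lay below every MWA+PBS sample, and the spread was smaller in MWA+2DG. The group means were 6.54 ± 0.554 and 4.92 ± 0.138 FPKM, a log2 fold change on the log2(FPKM + 1) scale of -0.35 ± 0.07 (SE), with a limma adjusted p of 0.00764. Leaving out any 1 sample kept the call (adjusted p between 0.0112 and 0.0318).

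Klra3 (ENSMUSG00000067591) moved the other way and was higher in MWA+2DG. It was 1.96, 3.25 and 2.30 FPKM in MWA+PBS and 4.18, 4.36 and 3.36 FPKM in MWA+2DG. The groups did not overlap, but MWA+PBS replicate 2 and MWA+2DG replicate 6 lay close together. The means were 2.50 ± 0.669 and 3.97 ± 0.533 FPKM, a log2 fold change of 0.51 ± 0.15 with an adjusted p of 0.0273 (limma). The call ended without MWA+PBS replicate 1 (0.40, adjusted p 0.0804) or replicate 3 (0.48, 0.0737), without MWA+2DG replicate 4 (0.48, 0.0815) or replicate 5 (0.46, 0.0836), and when genes of low level were kept in the fit (adjusted p 0.0757). After dividing the FPKM of each sample by the level of its 15 T lineage genes, an alternative added after seeing the data, the Klra3 difference was 0.15 (adjusted p 0.389) and that of Ncr1 was -0.76 (9.09e-05). That division moved the median of all tested genes from 0.05 to -0.36. After it 531 of the 12444 tested genes were called higher and 8150 lower at an adjusted p under 0.05.

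**Figure D1:**
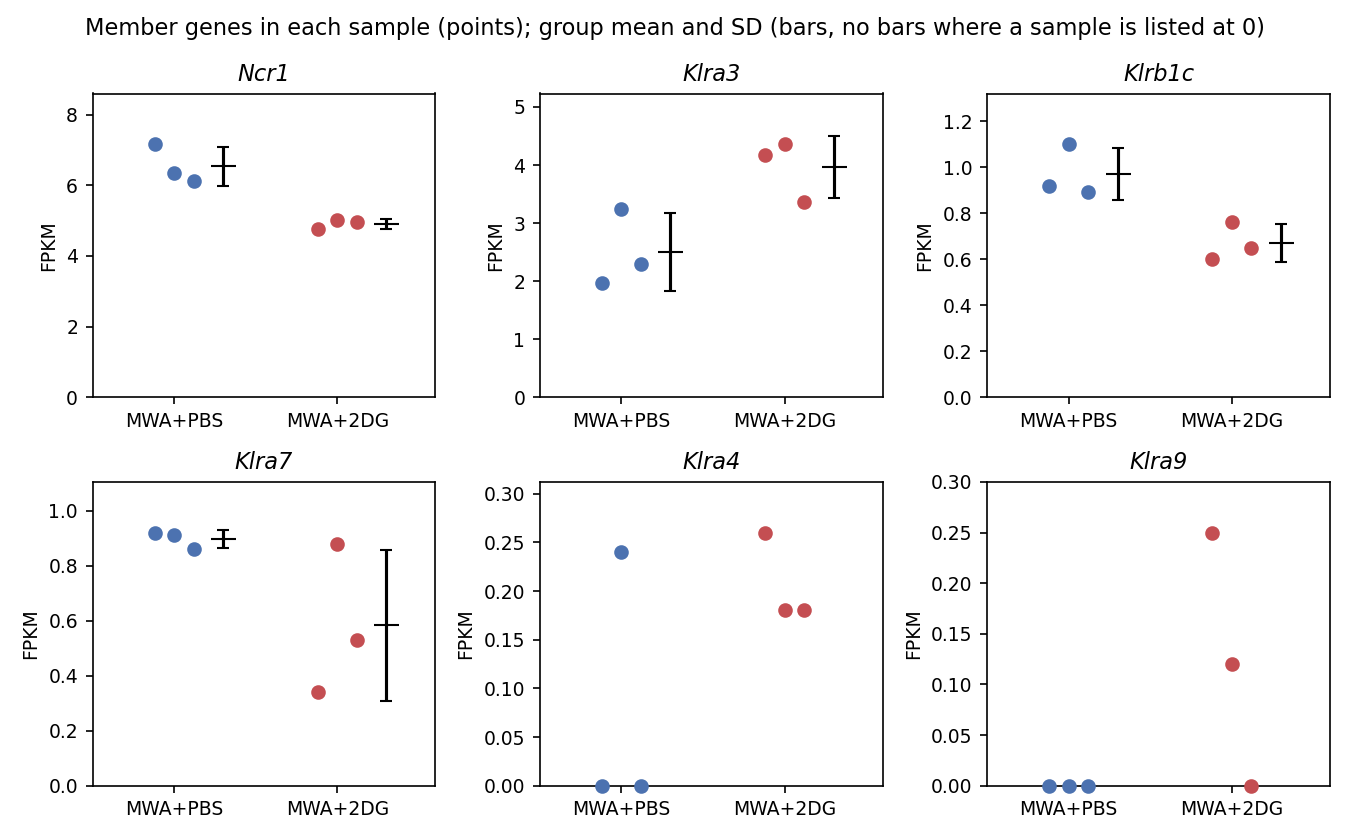
FPKM (y axis, from 0, with a scale of its own in each panel) of the 6 measured members in the 3 MWA+PBS and 3 MWA+2DG samples, with 1 point per sample and bars for the group mean and SD except where a sample was listed at 0. Ncr1 and Klrb1c lie lower and Klra3 higher in all MWA+2DG samples, Klra7 overlaps between the groups, and Klra4 and Klra9 stay at or below 0.26 FPKM.

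**Figure D2:**
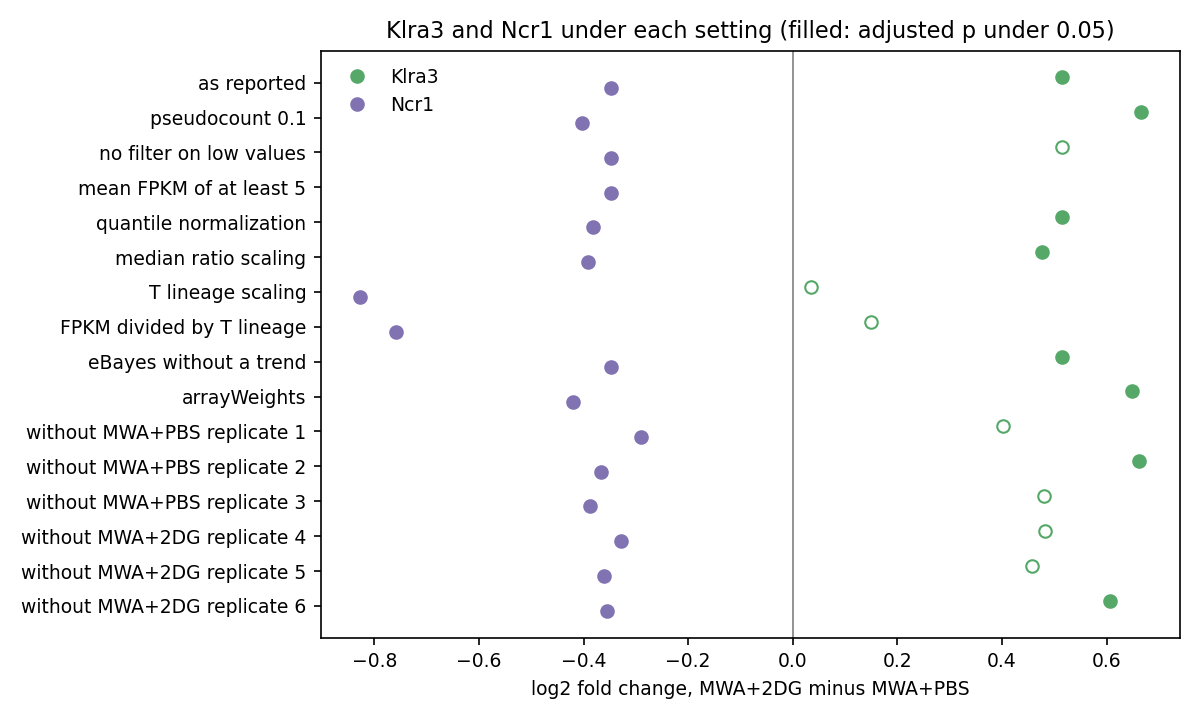
Log2 fold change of Klra3 and Ncr1 (x axis) under each way of processing the values (y axis), with filled points for an adjusted p under 0.05. Ncr1 is below 0 and called in all 16 fits, Klra3 is above 0 in the 15 fits that tested it but called in 8 of them, and it was not tested at a mean FPKM of at least 5.

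The other measured members had a mean under 1 FPKM over the 6 samples, the minimum for the test, and were examined in a fit of all 28458 genes above 0. Klrb1c (ENSMUSG00000030325) was 0.92, 1.10 and 0.89 FPKM in MWA+PBS and 0.60, 0.76 and 0.65 FPKM in MWA+2DG. The groups did not overlap, as for Ncr1. The means were 0.97 ± 0.114 and 0.67 ± 0.0819 FPKM, and the log2 fold change was -0.24 ± 0.09 with an adjusted p of 0.141 (limma), which did not pass. Without a trend in limma's variance prior the adjusted p was 0.0442.

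Klra7 (ENSMUSG00000067599) was 0.92, 0.91 and 0.86 FPKM in MWA+PBS and 0.34, 0.88 and 0.53 FPKM in MWA+2DG. MWA+2DG replicate 5 was at the MWA+PBS level and the other 2 samples of that group were below it. The means were 0.897 ± 0.0321 and 0.583 ± 0.274 FPKM, a log2 fold change of -0.27 ± 0.14 (adjusted p 0.243, limma). It was -0.16 without MWA+2DG replicate 4 and -0.41 without replicate 5. After division by the T lineage level Klrb1c stood at -0.45 (adjusted p 0.0114) and Klra7 at -0.47 (0.0371). The median of -0.36 given above for that division is over the tested genes, with a mean of at least 1 FPKM. On the log2(FPKM + 1) scale the division shifts lower genes less, and no median was taken over genes as low as Klrb1c and Klra7.

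The activating receptor gene Klra4 (ENSMUSG00000079852) was listed at 0 in MWA+PBS replicates 1 and 3, at 0.24 FPKM in replicate 2, and at 0.26, 0.18 and 0.18 FPKM in MWA+2DG. The fitted difference was 0.17 (adjusted p 0.288, limma). Without MWA+PBS replicate 2, the sample above 0, it was 0.27 (adjusted p 0.0181). Klra9 (ENSMUSG00000033024) was listed at 0 in all 3 MWA+PBS samples and in MWA+2DG replicate 6, and at 0.25 and 0.12 FPKM in MWA+2DG replicates 4 and 5. Its fitted difference was 0.16 (adjusted p 0.225), and 0.08 without MWA+2DG replicate 4, its highest sample. Since the files hold no read counts, the limit that a listed 0 allows is unknown.

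Counted over the members, 1 of the 2 tested was called higher and 1 lower at an adjusted p under 0.05, where 22.3% of all 12444 tested genes were called higher and 17.1% lower. The study's methods give a rule of P under 0.05 and a log fold change beyond 0.25, with no base stated. Applied here to the unadjusted limma p and the log2(FPKM + 1) scale, it again gave 1 and 1, beside 21.6% and 16.6% of all genes. In the fit without a minimum, 0 of the 6 measured members were called higher and 1 lower by limma, where 9.03% and 9.27% of all genes were. At an unadjusted p under 0.05 that fit held 1 higher (Klra3) and 2 lower (Ncr1 and Klrb1c), where 15.5% and 14.8% of all genes were higher and lower. With so few members tested, these counts are a description of the members and do not set them apart from other genes.

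The order of the members by level was the same in both groups. Ncr1 stood first and Klra3 second, without overlap of their values within a group. Klrb1c and Klra7 followed with overlapping values, and then Klra4 and Klra9, which also overlapped. Among the 28458 genes above 0, Ncr1 had a higher mean FPKM than 76.1%, Klra3 than 68.7%, Klrb1c than 54.5%, Klra7 than 53.6%, Klra4 than 37.1% and Klra9 than 27.5%. The opposite differences of the first 2 brought them together. Klra3 stood at 0.273, 0.513 and 0.376 of Ncr1 in MWA+PBS and at 0.878, 0.869 and 0.676 in MWA+2DG. Ncr1 was 6.81 ± 1.02 times Klrb1c in MWA+PBS and 7.39 ± 0.699 times in MWA+2DG, with overlapping samples. These ratios were chosen after the values had been seen, and for 3 samples against 3 an exact permutation test cannot go below 0.1, so no test is given for them.

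Of the 14 Ly49 (Klra) genes looked up, 10 were in the files, and the 4 measured Ly49 members made up most of their summed level. The members' sum was 2.88, 4.4 and 3.16 FPKM in MWA+PBS and 5.03, 5.54 and 4.07 FPKM in MWA+2DG, with overlap between MWA+PBS replicate 2 and MWA+2DG replicate 6. Its means were 3.48 ± 0.809 and 4.88 ± 0.746 FPKM, a ratio of 1.40. The sum of all 10 Klra genes did not overlap, being 4.35, 6.12 and 4.77 FPKM against 8.56, 9.28 and 7.97 FPKM, a ratio of 1.69. The share of Klra3 in that sum ranged in MWA+PBS from 45.1% to 53.1%, and in MWA+2DG from 42.2% to 48.8%.

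**Figure D3:**
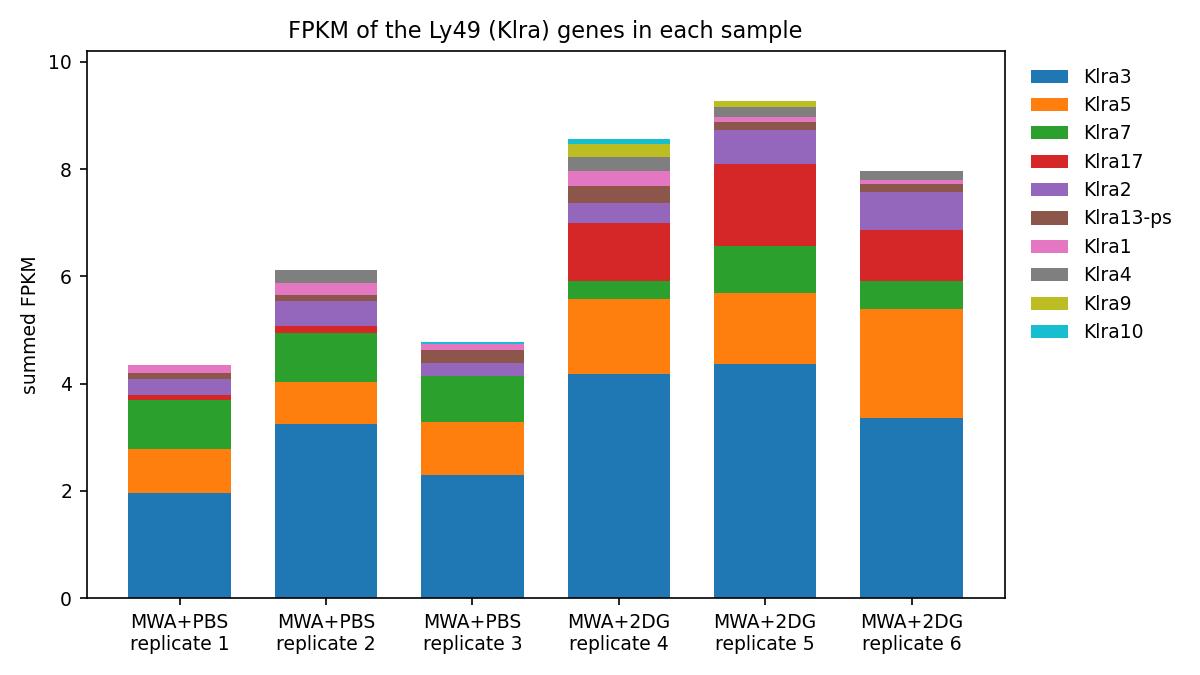
Stacked bars of the FPKM of the 10 measured Klra genes (y axis, summed FPKM from 0) in each of the 6 samples (x axis). The bars reach 4.35 to 6.12 FPKM in MWA+PBS and 7.97 to 9.28 FPKM in MWA+2DG, Klra3 is the largest segment in each, and Klra17 adds 0.95 to 1.53 FPKM in MWA+2DG.

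Outside the members the Ly49 genes that differed were Klra5 and Klra17. Klra5 encodes Ly49E, an inhibitory receptor known from fetal NK cells and some gamma delta T cells, and was 0.82, 0.78 and 0.98 FPKM in MWA+PBS and 1.40, 1.33 and 2.03 FPKM in MWA+2DG, without overlap. It was the 1 gene of the list of other Ly49 genes that reached the test and it rose (0.47 ± 0.13, limma adjusted p 0.0232). The Klra5 call ended without MWA+PBS replicate 1 (adjusted p 0.0668) or 2 (0.0548), without MWA+2DG replicate 6 (0.0704) and without the filter (0.0617). After division by the T lineage level the difference was 0.21 (adjusted p 0.188).

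Klra17 encodes Ly49Q, which is known from plasmacytoid dendritic cells and other myeloid cells rather than NK cells. It was 0.08 and 0.14 FPKM in MWA+PBS replicates 1 and 2, listed at 0 in replicate 3, and 1.08, 1.53 and 0.95 FPKM in MWA+2DG. Its fitted difference in the fit of all genes was 1.02 ± 0.12 (limma adjusted p 0.00281) and 0.88 (0.00258) after division by the T lineage level. In MWA+2DG the neutrophil marker sum was also higher than in MWA+PBS, and the dendritic cell sum and the macrophage and monocyte sum were lower. Siglech, a marker of plasmacytoid dendritic cells, averaged 0.523 FPKM against 0.88 FPKM in MWA+PBS and was not called (limma adjusted p 0.071). Which cells the Klra17 difference came from was not tested. Klra2, which encodes Ly49B, was 0.30, 0.46 and 0.25 against 0.37, 0.63 and 0.71 FPKM (0.23, adjusted p 0.227). Klra1, which encodes the inhibitory Ly49A, was 0.15, 0.23 and 0.12 against 0.28, 0.10 and 0.07 FPKM (-0.02, adjusted p 0.858). The pseudogene Klra13-ps ranged from 0.11 to 0.31 FPKM over the 6 samples, and Klra10 was listed at 0 in 4 of them. Klra12 and Klra14-ps were not used here.

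The 4 members above 0 in every sample were set against the Cd8a level of the same sample. Klra3 was 8.54, 13.6 and 10.2 FPKM per 1000 FPKM of Cd8a in MWA+PBS and 11.5, 12.1 and 8.91 in MWA+2DG, with means of 10.8 ± 2.57 and 10.9 ± 1.71. Ncr1 was 31.2, 26.5 and 27.1 against 13.1, 14 and 13.2 per 1000 FPKM of Cd8a, a ratio of means of 0.475. The groups did not overlap for Ncr1 and overlapped for Klra3.

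On this scale Klrb1c ranged in MWA+PBS from 3.94 to 4.6, and in MWA+2DG from 1.65 to 2.12, a ratio of 0.438. Klra7 ranged in MWA+PBS from 3.8 to 4.01, and in MWA+2DG from 0.936 to 2.45, a ratio of 0.412. Ncr1, Klrb1c and Klra7 were thus lower in all MWA+2DG samples on this scale, as were 67.3% of the 18222 genes above 0 in every sample, while 3.17% were higher in all of them. The median ratio over those genes was 0.644, since Cd8a itself rose, so being lower here does not set these members apart from other genes. On the FPKM scale Klra7 overlapped between the groups. The sum of the Ly49 members relative to Cd8a had a ratio of 0.892, with overlap. Cd8a rose by 0.66 on the log2 scale (limma adjusted p 8.94e-05), and whether more CD8+ T cells or more Cd8a RNA per cell lay behind that was not measured.

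**Figure D4:**
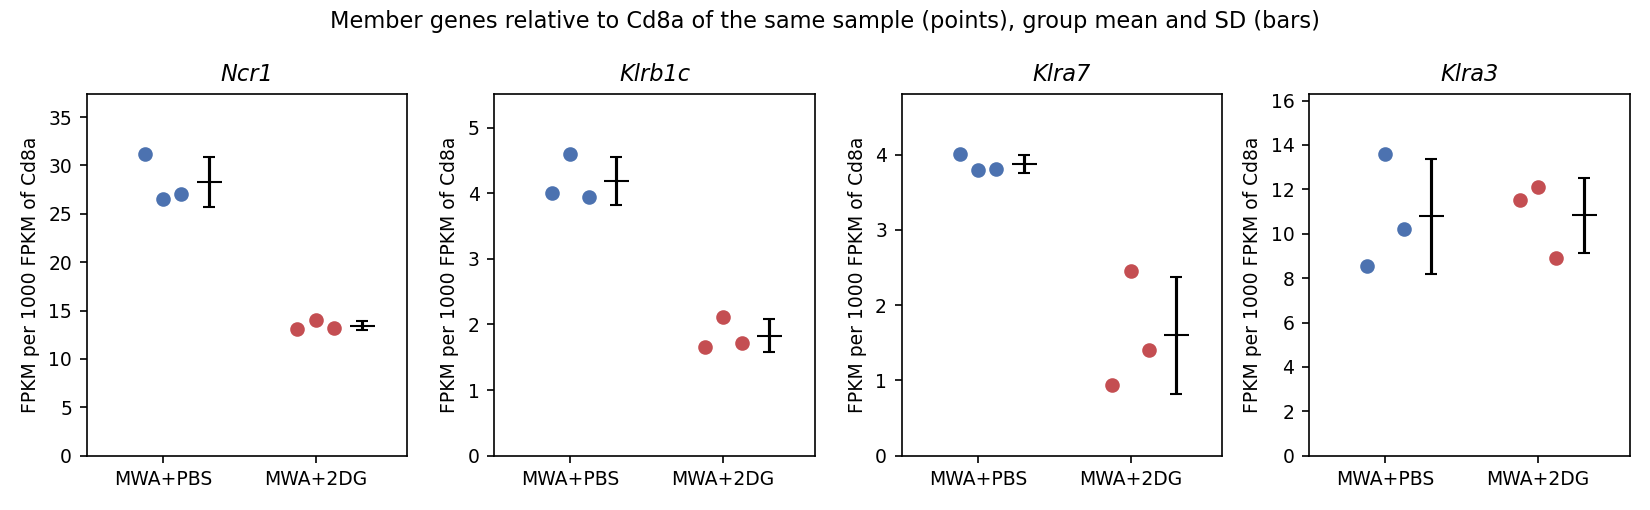
FPKM of Ncr1, Klrb1c, Klra7 and Klra3 per 1000 FPKM of Cd8a in the same sample (y axes from 0), with 1 point per sample and bars for the group mean and SD. The first 3 genes lie lower in all 3 MWA+2DG samples (13.1 to 14 against 26.5 to 31.2 for Ncr1), as do 67.3% of all genes above 0 in every sample, and Klra3 overlaps between the groups.

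Other lectin-like receptors of the NK gene complex, which CD8+ T cells share more widely with NK cells, changed in both directions. Of 15 genes listed by hand, 8 were tested, 5 rose (Klrd1, Klrk1, Klrg1, Klrc1 and Klrc3) and 1 fell, with a median log2 fold change of 0.40 against 0.05 over all tested genes. After division by the T lineage level 1 was higher (Klrd1, 0.59, adjusted p 0.00313) and 2 were lower, and without MWA+2DG replicate 5 the calls were 3 higher. The 6 genes under the minimum were not called in the fit of all genes. Of these, Klrb1a went from 1.19 to 0.693 FPKM, Klre1 from 1.02 to 0.823 and Klri2 from 0.627 to 0.373, without overlap (limma adjusted p 0.157, 0.361 and 0.238). Klrb1, Klrb1b and Klrg2 overlapped between the groups. Klrd1, which encodes CD94, the partner of the NKG2 chains, rose from 25.7 ± 5.48 to 54.4 ± 5.97 FPKM (1.07 ± 0.14, limma adjusted p 0.00101). Klri1, which encodes a KLRE1-associated receptor of NK cells, fell from 4.24 ± 1.13 to 2.48 ± 0.594 FPKM (-0.58 ± 0.18, adjusted p 0.0388) with overlapping samples. The Klri1 call ended in 4 of the 6 fits that left out a sample, without MWA+PBS replicate 2 (adjusted p 0.0917) or 3 (0.107) and without MWA+2DG replicate 5 (0.113) or 6 (0.1), and without the filter (0.102) or with sample weights (0.15).

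NK cell markers outside the members did not move in 1 direction. Of 8 tested, 4 rose (Eomes, S1pr5, Il18rap and Nkg7), 1 fell (Car2, -1.25, limma adjusted p 8.73e-06) and Itga2, Gzma and Adamts14 did not pass. After division by the T lineage level 2 were higher (Eomes and S1pr5) and 4 lower. Which cells the Car2 difference came from was not tested. Eomes, a transcription factor of NK cells and memory CD8+ T cells, rose from 22.8 ± 0.337 to 45.6 ± 1.87 FPKM (0.97 ± 0.05, adjusted p 1.06e-05). The list's summed level ranged in MWA+PBS from 193 to 214 FPKM, and in MWA+2DG from 282 to 290 FPKM, most of it from Nkg7, which cytotoxic T cells also express. Itga2, which encodes the DX5 antigen, was 1.18 ± 0.0231 and 0.963 ± 0.127 FPKM (-0.15, adjusted p 0.256), Styk1 stayed at or below 0.11 FPKM and Khdc1a was listed at 0 in 5 of the 6 samples. Serpinb9b, a serpin gene of the list, was 0.39 ± 0.101 and 0.137 ± 0.0808 FPKM without overlap, and was called lower in the fit of all genes (-0.29 ± 0.08, limma adjusted p 0.0494). The Serpinb9b call ended without any 1 of the 6 samples (adjusted p between 0.0565 and 0.167).

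Among 10 genes of Ly49-bearing and innate-like memory CD8+ T cells, 6 rose and 2 fell (median 0.38), and after division by the T lineage level 3 were higher and 3 lower. The chemokine receptor gene Cxcr3 rose most, from 15.6 ± 2.48 to 46.6 ± 3.02 FPKM (1.53 ± 0.11, limma adjusted p 4.08e-05). Cd244a, which encodes the SLAM family receptor 2B4, fell from 2.92 ± 0.406 to 0.99 ± 0.114 FPKM (-0.97 ± 0.10, adjusted p 0.000338). Il2rb, which encodes the beta chain of the IL-2 and IL-15 receptors, also fell (-0.24, adjusted p 0.0225). The Il2rb call ended without MWA+PBS replicate 1 or 3 or MWA+2DG replicate 4, 5 or 6 (adjusted p between 0.0519 and 0.078). Ikzf2, which encodes Helios and marks Ly49-bearing regulatory CD8+ T cells, was 2.50 ± 0.225 and 2.15 ± 0.151 FPKM (-0.15, adjusted p 0.203).

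Of 7 tested genes of gamma delta T cells and NKT cells, 4 rose and 1 fell (median 0.25), and after division by the T lineage level 1 was higher and 3 were lower. Sox13, under the minimum for the test, went from 0.61 ± 0.01 to 1.33 ± 0.206 FPKM without overlap. It was called higher in the fit of all genes (0.53 ± 0.10, limma adjusted p 0.0166). Tcrg-C2, a T cell receptor gamma constant gene, rose from 5.52 ± 0.89 to 11.1 ± 0.631 FPKM (0.89 ± 0.10, limma adjusted p 0.000467). Zbtb16, which encodes PLZF, the transcription factor of NKT cells, fell from 1.56 ± 0.208 to 0.95 ± 0.216 FPKM (-0.40 ± 0.12, adjusted p 0.0358). Without MWA+PBS replicate 1 or 3 or MWA+2DG replicate 4 or 6 the list held 3 higher and 0 lower calls by limma, since those of Slamf6 (adjusted p between 0.071 and 0.0809) and Zbtb16 ended. The Zbtb16 call ended with no filter, with quantile normalization and without MWA+PBS replicate 1 or 3 or MWA+2DG replicate 4 or 6 (adjusted p between 0.0674 and 0.108).

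The adaptors and kinases of activating NK receptors, among them those of the activating members, changed in both directions. Of 9 tested, 3 rose and 5 fell, with a median of -0.98, and after division by the T lineage level 1 was higher and 8 were lower. Tyrobp, whose product DAP12 pairs with the Klra4 and Klra8 receptors, was 45.63, 44.63 and 40.17 FPKM in MWA+PBS and 20.08, 14.29 and 16.44 FPKM in MWA+2DG (-1.32 ± 0.12, limma adjusted p 0.000126). Fcer1g, whose product serves Ncr1 and Klrb1c, fell from 29.8 ± 1.92 to 8.19 ± 1.49 FPKM (-1.76 ± 0.11, adjusted p 2.83e-05). The samples of the 2 groups lay far apart for both adaptors, and both are also genes of myeloid cells, among which the macrophage and monocyte markers fell and the neutrophil markers rose in the same samples.

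The kinase gene Syk fell from 11.7 ± 1.42 to 5.39 ± 0.155 FPKM (-0.98), the phospholipase gene Plcg2 from 14.9 ± 1.54 to 6.53 ± 0.347 FPKM (-1.08) and Sh2d1b1, which encodes the SLAM family adaptor EAT-2, from 4.40 ± 0.712 to 0.763 ± 0.00577 FPKM (-1.61). Which cells the differences of Syk, Plcg2 and Sh2d1b1 came from was not tested. The 3 that rose are used by T cells as well. Hcst, which encodes DAP10, the adaptor of the NKG2D receptor, rose from 14.8 ± 0.625 to 25.4 ± 2.35 FPKM (0.74 ± 0.07, limma adjusted p 0.00025). Cd247 (0.29, adjusted p 0.0119) and the kinase gene Zap70 (0.27, adjusted p 0.0138) also rose, and after division by the T lineage level were at -0.18 and -0.21. Cd247 is itself 1 of the 15 T lineage genes, so its value after division is in part set by that division. The Zap70 call ended without MWA+2DG replicate 4 (adjusted p 0.0531) or 6 (0.0551). The exchange factor gene Vav1 was 56.0 ± 2.68 and 54.4 ± 1.07 FPKM (-0.04, adjusted p 0.593).

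The phosphatases that ITIM-bearing Ly49 receptors recruit were not called. Ptpn6 (SHP-1) was 107 ± 9.38 and 96.7 ± 8.42 FPKM (-0.14, 95% interval -0.35 to 0.06), Ptpn11 (SHP-2) was 15.5 ± 0.797 and 14 ± 0.704 FPKM (-0.13, -0.28 to 0.01) and Inpp5d (SHIP-1) was 29.8 ± 1.79 and 27.8 ± 0.627 FPKM (-0.10, -0.23 to 0.04). Limma called 0 of the 3, and 0 had an unadjusted p under 0.05. With sample weights Ptpn11 was called (-0.16, adjusted p 0.0367). After division by the T lineage level all 3 were called lower, as were 8150 of all 12444 tested genes.

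MHC class I genes, which encode the ligands of Ly49 receptors, were measured in the same isolates. The genes H2-K1 (141 ± 14.5 to 187 ± 11.7 FPKM, log2 fold change 0.40, limma adjusted p 0.00866), H2-D1 (369 ± 19.7 to 457 ± 18.4 FPKM, 0.31, 0.00818) and B2m (1451.6 ± 44 to 1756.0 ± 53.9 FPKM, 0.27, 0.0158) rose. The 0.66 of Cd8a was a larger difference than any of these, and after division by the T lineage level the 3 genes stood at -0.08, -0.18 and -0.21. There H2-D1 (adjusted p 0.0129) and B2m (0.015) were called lower and H2-K1 was not called (0.328). The B2m call ended with quantile normalization (adjusted p 1), without the filter (0.218) and without MWA+PBS replicate 1 (0.0634) or 3 (0.058) or MWA+2DG replicate 4 (0.0536) or 5 (0.0504). Of the Clec2 genes, whose products include ligands of other NKR-P1 receptors than the member Klrb1c, both tested rose. Clec2d went from 17.1 ± 4.24 to 32.2 ± 3.94 FPKM (0.90 ± 0.17, adjusted p 0.0054) and Clec2i from 24.5 ± 4.29 to 33.6 ± 1.24 FPKM (0.45 ± 0.11, adjusted p 0.016). The Clec2i call ended without MWA+PBS replicate 1 (adjusted p 0.0515) or MWA+2DG replicate 4 (0.0519) and after division by the T lineage level (-0.02, adjusted p 0.892), where Clec2d was at 0.44 (0.0256).

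**Figure D5:**
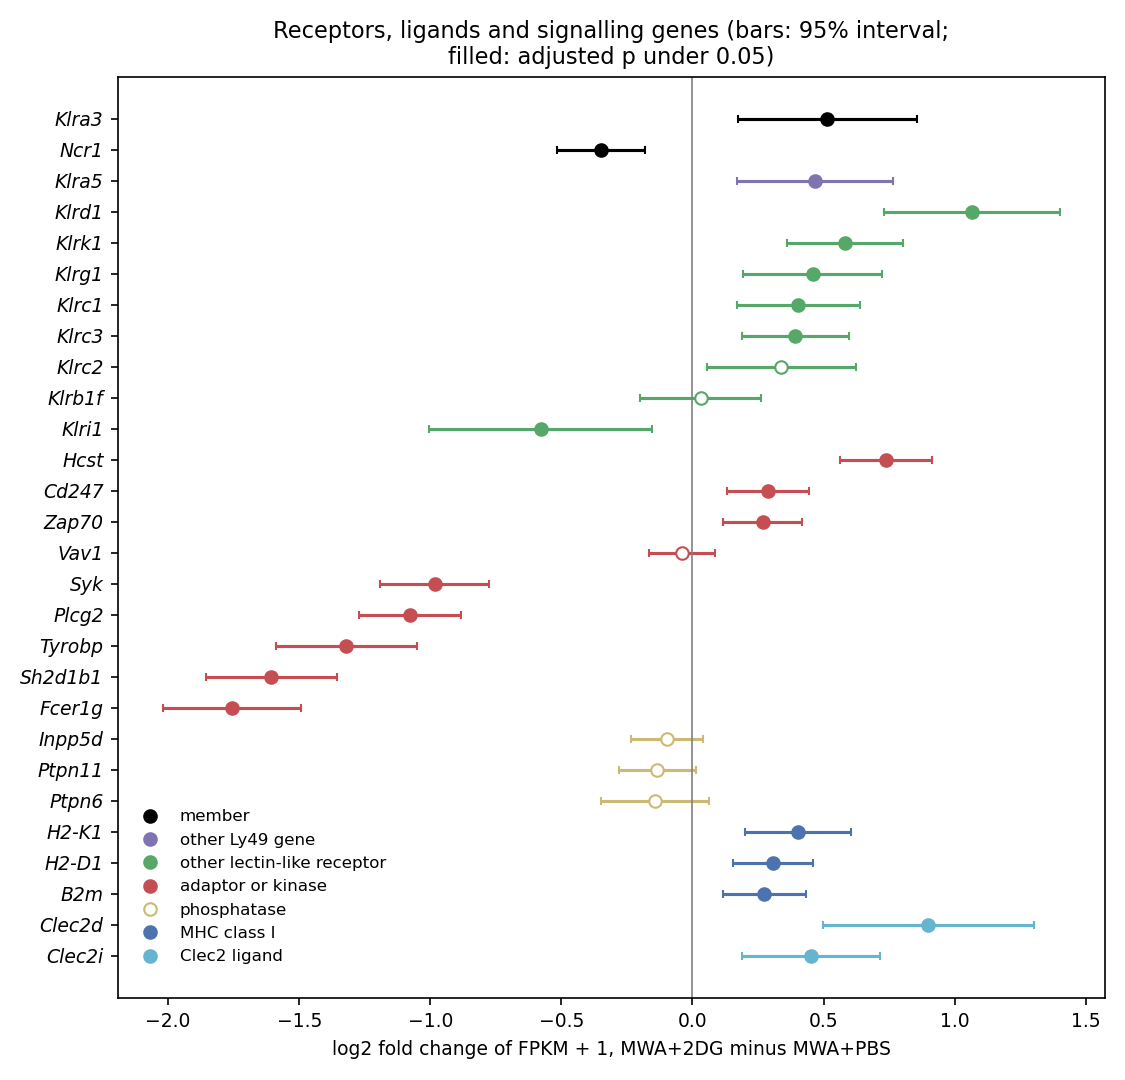
Log2 fold change of FPKM + 1, MWA+2DG minus MWA+PBS (x axis), of the tested members, other receptors, adaptors, phosphatases and ligands, with 95% intervals from limma and filled points for an adjusted p under 0.05. Klra3 (0.51) and Ncr1 (-0.35) lie on opposite sides of 0, and the differences range from -1.76 for Fcer1g to 1.07 for Klrd1.

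The sample-to-sample differences of the summed Ly49 members within the groups were also compared with those of other genes. The 5 genes outside the lists with the highest Pearson correlation to that sum, as deviations from the group means over 6 samples, were Gm47827, Zscan26, Ndufa2, Klhl8 and 4632404H12Rik. Their r was between 0.9920 and 0.9994. Of the 12346 genes compared, 63 had an r above 0.95. With only 6 samples and this many genes, these values are a description of the samples, which also share their library and depth, and carry no test.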

How the data were processed

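The authors checked reads with fastp, aligned them with HISAT2, and quantified genes as FPKM with StringTie and ballgown, and they deposited these FPKM values with at most 2 decimals for each sample. The submitters' processing notes also name cutadapt 1.9, HISAT2 2.0.4, UMI-tools, StringTie 1.3.4d and the build mm9, without roles. FPKM is scaled to the library total and holds no counts, so depth and counting error cannot be stated, and an abundant transcript takes its share from all others.

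Members and gene lists were chosen with earlier results of these data known. In the lists, genes were named by rule: all members, the other Ly49 genes, every measured adaptor, phosphatase and MHC class I gene, Cd8a, and the called gene with the largest increase and decrease elsewhere. Further genes of the lists were named after their values were seen. Genes with a mean FPKM of at least 1 were tested (12444) as log2(FPKM + 1), MWA+2DG minus MWA+PBS, two-sided, with limma 3.58.1 (lmFit, eBayes with a trend) in R 4.3.3, without covariates. Adjusted p-values are Benjamini-Hochberg over all tested genes. The fit was tested on simulated data. Alternatives were a pseudocount of 0.1, no minimum or a minimum of 5, quantile normalization, median ratio scaling, subtraction of the mean log2 level of 15 T lineage genes, eBayes without a trend, arrayWeights (sample weights) and leaving out each sample. Genes under the minimum were taken from the fit of 28458 genes, and each alternative was repeated on it for them, which was added after seeing the data, as was dividing FPKM by the geometric mean FPKM of the T lineage genes. A log2(FPKM + 1) scale understates changes of low genes. Symbols were found for 28689 of 28773 gene IDs. Coordinates of printed sequences belong to GRCm38 and were not used to place reads. No batch was labelled, and a batch in step with the groups and the treatment cannot be told apart.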

Additional observations from a re-analysis of the deposited data

How the results depend on the processing

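FPKM without read counts leaves the precision of genes under 1 FPKM unknown, and 3 samples a group leave it low. No paired analysis was possible because the replicate numbers 1 to 3 and 4 to 6 are not shared between the groups. Over 59 single-gene results and their alternatives, 737 of 850 values kept direction and side of the threshold, 51 lost the call, 23 gained one and 39 changed sign, and the cause was not tested except where named. With a minimum mean FPKM of 5 (7313 genes tested), the study's rule was passed by 2562 genes and the adjusted p by 2951, with 1 member in each. Without a filter 1 member passed the adjusted p, and without 1 sample between 1 and 2 did. The ratio of the summed Ly49 members, 1.40, was 1.69 over every Klra gene, 0.892 relative to Cd8a, and between 1.29 and 1.62 without 1 sample. As reported 56.5% of all calls by either rule were higher, with median ratio scaling 48.6% by either, and without a filter 51.3% by the study's rule and 49.3% by the adjusted p. Dividing FPKM by the T lineage level gave 8234 genes by the study's rule and 8681 by the adjusted p, 6.02% and 6.12% of them higher, with 1 member in each. It turned the calls over the fixed lists, 56 higher and 24 lower as reported, into 26 and 40. Signs that changed were Klra13-ps -0.0187, Cd247 -0.18, Zap70 -0.21, H2-K1 -0.0796, H2-D1 -0.18, B2m -0.21, Clec2i -0.0152, Klrc3 -0.0075, Gm47827 -0.13, Zscan26 -0.0680 and Klhl8 -0.25. Subtracting the T lineage mean on the log2(FPKM + 1) scale takes 0.48 from every gene, which exceeds what a division does to genes near 0, so its signs and calls for low genes follow from that shift and are no results of their own. It moved the median of all genes from 0.05 to -0.43, gave 9162 and 9584 genes, 3.59% and 4.1% of them higher, 1 member by either rule, 25 higher and 44 lower calls over the lists, and Klra4 -0.31, Klra9 -0.32, Klra2 -0.25, Klra10 -0.45, Klra13-ps -0.42, Klra5 -0.0121, Klrg1 -0.0205, Klrc1 -0.0751, Klrc3 -0.0867, Clec2i -0.0257, Cd247 -0.19, Zap70 -0.21, H2-K1 -0.0764, H2-D1 -0.17, B2m -0.20, Gm47827 -0.26, Zscan26 -0.0786 and Klhl8 -0.46. Klra1 was 0.0032 with quantile normalization and between 0.0056 and 0.0256 without MWA+PBS replicate 2, MWA+2DG replicate 5 or 6 (0.0145 for the first). Klra10 was -0.0142 and Klra13-ps -0.0089 without MWA+2DG replicate 4. Klhl8 was -0.0064 with median ratio scaling, and between -0.0629 and 0.1374 without 1 sample (below 0 without MWA+PBS replicate 1, at -0.0107 without replicate 3 and at -0.0333 without MWA+2DG replicate 5).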
